A study of Mus musculus with 8 samples.

Results

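The genes described here are the pore-forming and auxiliary subunits of voltage-gated sodium, calcium and pacemaker channels and of all potassium channel families. They were chosen by the form of the symbol alone, with Kcnq1 left out. Kcn had to be followed by letters and a number, and Scn by a number and the letter a or b. Hcn, Cacnb and Cacng had to be followed by a digit, and Cacna by a digit with or without a further letter and digit. Each gene was read through its brightest single-gene probe set, a set of short oligonucleotides on the array, taken by the mean over all arrays. This gave 116 of the 18194 genes measured. RefSeq lists 135 symbols that match the rule, and 19 of them were not analysed here.

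The series holds 8 arrays of total RNA from 3 kinds of mouse culture. Parthenogenetic stem cells (PSC, 3 arrays) come from C57BL/6 oocytes of superovulated mice that were activated with strontium-chloride and grown to blastocysts, from which the cells were taken at day 6, so both of their genome copies are maternal. The embryoid bodies (EB_PSC, 2 arrays) are PSC of the same strain, C57BL/6, left to differentiate as aggregates over 15 days. Embryonic stem cells (ESC, 3 arrays) are the line R1, kept on mouse embryonic fibroblast (MEF) feeders with leukemia inhibitory factor (LIF). R1 is an established line made from a fertilised embryo. The labels name no strain for R1, no feeder or LIF for PSC, and no number of PSC lines, and they do not say whether arrays of a group come from separate cultures. The p-values therefore measure only the spread between these arrays, which may be technical.

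Voltage-gated channels open when the membrane potential changes and let sodium, calcium or potassium ions pass. In a beating heart cell, sodium channels start the action potential, L-type calcium channels hold it and trigger contraction, potassium channels of several families end it, and pacemaker (HCN) channels depolarise the cell again between beats. Inward rectifiers and 2-pore-domain potassium channels set the resting potential in many cell types, stem cells included. Auxiliary subunits form no pore of their own, but change how many channels reach the surface and how fast they open and close.

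The values are on a log2 scale, on which a step of 1 is a doubling. Replicate arrays correlated over all probe sets at 0.991 to 0.995, PSC with ESC arrays at 0.978 to 0.986, and EB_PSC with the other arrays at 0.925 to 0.943. All 8 pluripotency markers fell in EB_PSC, and all 12 cardiomyocyte markers rose, with a median difference of 3.64. The gap between the 3' and 5' control probes of Gapdh, a sign of RNA quality, ranged from -0.06 to 0.00 in PSC, from -0.09 to -0.06 in EB_PSC and from 0.09 to 0.17 in ESC. The PSC to ESC gap in this control had an exact two-sided permutation p of 0.1, the smallest that 3 against 3 arrays can give. The same gap of beta-actin was wider, from 1.04 to 1.54 in PSC, 1.09 to 1.17 in EB_PSC and 0.69 to 1.13 in ESC, and PSC minus ESC was 0.33 in it (exact permutation p 0.2), against -0.17 in Gapdh.

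Most channel genes were dim in all 3 kinds of culture. A mean of 5.44, the median of all deposited values, was taken as the limit under which a probe set counts as dim, and no fold is given where a group lies below it. Of the 116 channel genes, 74 (63.8%) lay below that limit in every group, against 31.8% of all genes. At or above the limit in every group were 30 channel genes (25.9%), against 59.8% of all genes. The numbers at or above it were 39 in PSC, 33 in EB_PSC and 36 in ESC. Array values of different probe sets cannot be ranked as amounts of RNA, so these counts say only which probe sets lay over the median of the table. Among the members above the limit in all groups were Kcnj11, the pore of the ATP-sensitive potassium channel, with means of 9.66 in PSC, 9.41 in EB_PSC and 9.17 in ESC, and Kcnk1, a 2-pore-domain channel, with 8.14, 8.22 and 8.96. Also among them were Hcn3, a pacemaker family member, and Kcnh2, the pore of the rapid delayed rectifier that helps end the cardiac action potential.

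Comparison of EB_PSC with PSC asks which channel genes change while parthenogenetic cells differentiate. Kcnmb4, the beta4 subunit of the large-conductance calcium-activated potassium channel, rose 2.52-fold, and Kcnk5, an acid-sensitive 2-pore-domain channel, fell 3.89-fold. Kcnq5, Cacna2d1 and Kcnj5 also rose by more than 1 log2 unit, and Cacna2d2 and Kcnip2 fell by more than 1. In all, 11 channel genes were higher (9.48%, where 18.8% of all genes were) and 13 were lower (11.2%, where 25.2% of all genes were) at a limma adjusted p below 0.05. The median difference over the 116 genes was -0.07, and over all genes -0.10 log2 units. A difference of 1 log2 unit or more was measured in 7 channel genes (6.03%), against 16% of all genes.

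The share of channel genes called was below that of all genes in both directions, and it was read again by level. Among genes with an overall mean at or above the limit, 1 of 36 channel genes rose (2.78%, all such genes 23.2%) and 8 of 36 fell (22.2%, all such genes 34.3%). Among genes below it, 10 of 80 channel genes rose (12.5%, all such genes 10.8%) and 5 fell (6.25%, all such genes 8.54%). The arrays of the 2 groups did not overlap for 48 channel genes (41.4%), against 62.8% of all genes. Leaving out PSC replicate 3 gave 7 higher channel genes, and 17.4% of all genes were higher in that fit. Without EB_PSC replicate 1 the median difference was 0.00 over the channel genes and -0.07 over all genes. Normalizing again by cyclic loess, which moved the median of all genes to -0.01, gave 12 higher and 10 lower channel genes (all genes 23% and 19.6%).

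**Figure D1:**
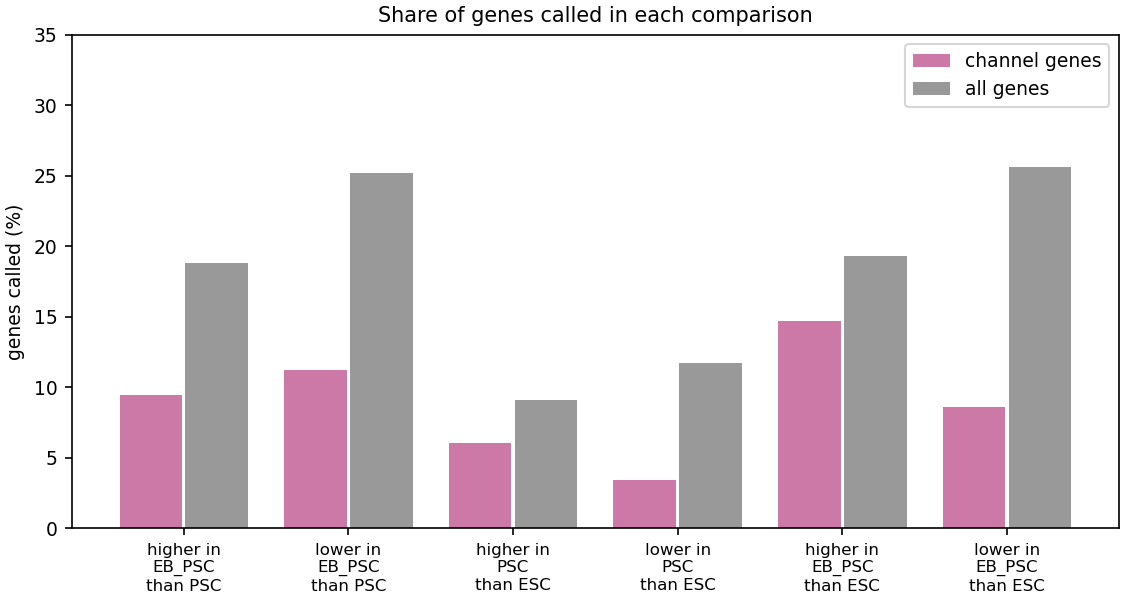
Bars show the percent of genes called higher or lower (y axis) for the channel genes and for all genes in each comparison. In EB_PSC against PSC the channel genes stand at 9.48% higher and 11.2% lower, beside 18.8% and 25.2% of all genes.

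**Figure D2:**
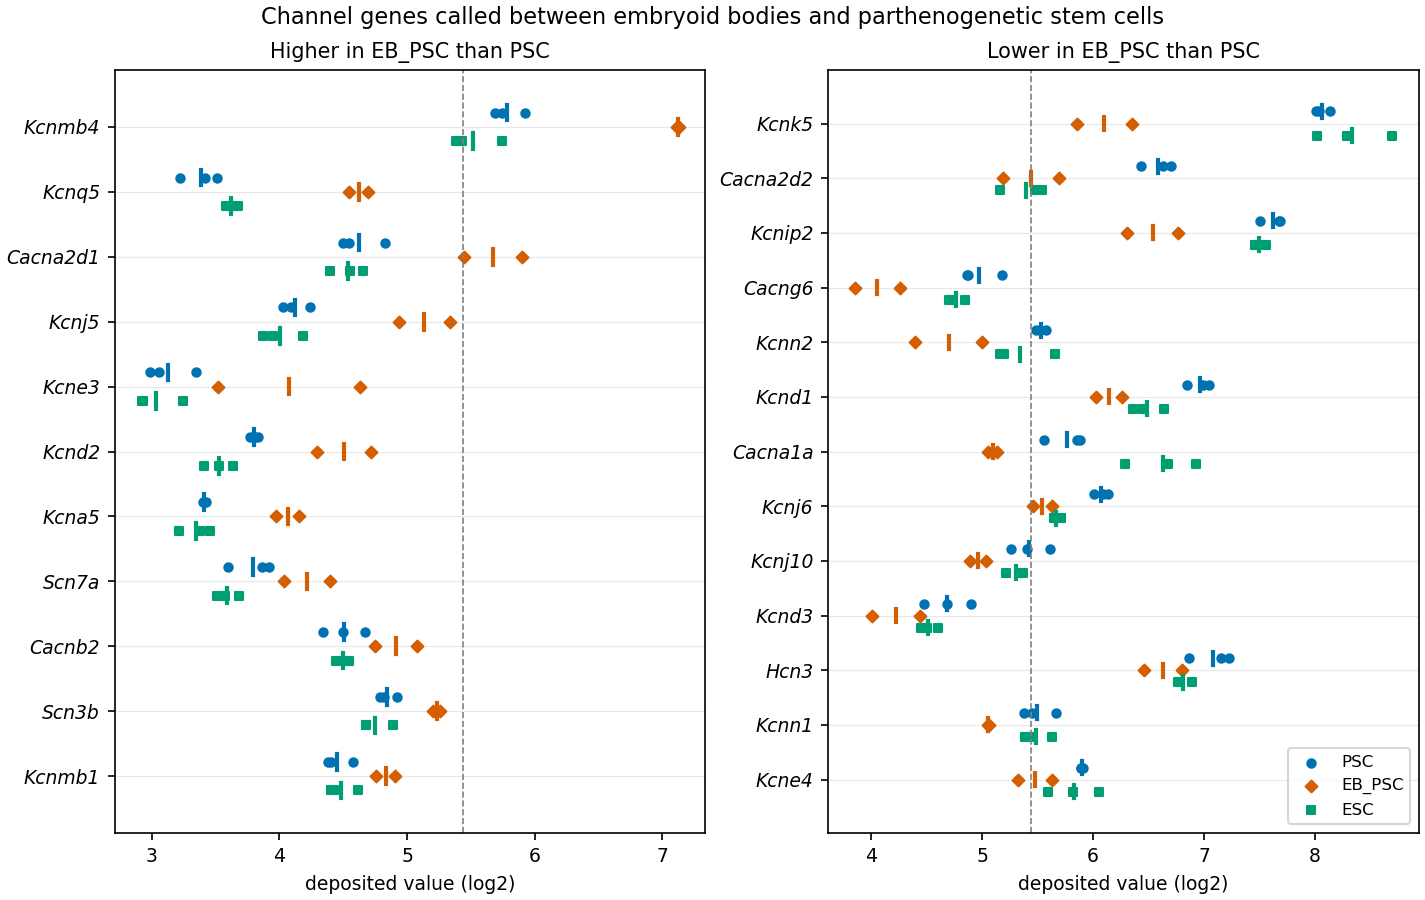
Points are the log2 values (x axis) of each array for the 24 channel genes called between EB_PSC and PSC, 1 row per gene, coloured by group. The EB_PSC and PSC points do not overlap in any of these rows, and Kcnk5 has the widest gap.

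Kcnmb4, Cacna2d1, Kcnk5 and Kcnip2 were picked from the genes with the largest differences, and their upstream sequences are shown as examples. They do not stand for the promoters of the other called genes. Each is the 250 bases before the RefSeq transcription start in GRCm38.p6, written 5' to 3' on the strand of the gene. Capitals mark the GC box GGGCGG or its reverse complement CCGCCC, a motif to which Sp1-family factors can bind. Positions are chr10:116473524-116473773 on the minus strand for Kcnmb4, chr5:15934441-15934690 on the plus strand for Cacna2d1, chr14:20181783-20182032 on the minus strand for Kcnk5 and chr19:45816064-45816313 on the minus strand for Kcnip2.
Kcnmb4: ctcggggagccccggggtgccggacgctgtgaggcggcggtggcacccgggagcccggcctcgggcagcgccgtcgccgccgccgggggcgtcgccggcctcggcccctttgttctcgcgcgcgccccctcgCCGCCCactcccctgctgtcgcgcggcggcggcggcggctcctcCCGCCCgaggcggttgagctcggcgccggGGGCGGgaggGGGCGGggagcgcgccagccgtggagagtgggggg
Cacna2d1: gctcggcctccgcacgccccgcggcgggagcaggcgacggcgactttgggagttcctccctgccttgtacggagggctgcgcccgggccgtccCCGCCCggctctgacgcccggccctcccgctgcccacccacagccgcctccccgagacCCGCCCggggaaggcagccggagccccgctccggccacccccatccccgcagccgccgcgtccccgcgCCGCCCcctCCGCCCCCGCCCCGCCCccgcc
Kcnk5: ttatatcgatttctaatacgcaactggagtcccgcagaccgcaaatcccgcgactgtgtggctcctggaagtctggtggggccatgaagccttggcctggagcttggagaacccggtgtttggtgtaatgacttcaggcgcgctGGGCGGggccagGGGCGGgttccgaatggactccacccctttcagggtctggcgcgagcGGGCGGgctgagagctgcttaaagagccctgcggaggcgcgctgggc
Kcnip2: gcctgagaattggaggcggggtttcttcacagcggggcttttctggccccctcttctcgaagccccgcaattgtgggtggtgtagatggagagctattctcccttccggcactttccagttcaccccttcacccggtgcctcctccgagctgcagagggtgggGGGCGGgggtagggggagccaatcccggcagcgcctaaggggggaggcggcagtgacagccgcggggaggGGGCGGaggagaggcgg
Both genes that rose and both that fell carried GC boxes here. Kcnmb4 had 4 and a GC content of 83.6%, and Cacna2d1 had 6, counting overlapping ones, and 82.4%. Kcnk5 had 3 and 62.8%, and Kcnip2 had 2 and 66.8%.

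The same windows were searched over all channel genes. RefSeq entries matched 89 of the 116 genes, with 124 promoters between them, and motifs were searched in the 250 upstream bases on both strands. GGGCGG was present in 42.7% of the channel promoters and in 32.7% of all 32851 promoters. It was in 58.6% of promoters of channel genes above the limit in all 3 groups, and in 35.3% of those below it in all 3. For genes higher in EB_PSC the share was 53.8% of 13 promoters, and for genes lower it was 54.5% of 11. The TATA box TATAAA was in 4.03% of channel promoters and 12.4% of all promoters, and the GATA factor motif AGATAA in 3.23% and 9.99%. The motif of Rest, a repressor of neuronal genes, was searched in its 2 parts, as GGACAGC, present in 7.26% and 5.28%, and as TTCAGCACC, present in 0 channel promoters and 0.301% of all. A match describes letters in this window only.

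Few sodium channel genes were called. Of 8 alpha (pore) subunits 1 rose, and of 3 beta subunits 1 rose, with none lower. Scn7a, an atypical pore that works as a sodium sensor, had 3.92, 3.86 and 3.60 in PSC and 4.03 and 4.40 in EB_PSC. Scn3b, a beta subunit, had 4.82, 4.92 and 4.79 in PSC and 5.20 and 5.26 in EB_PSC. Each gene's EB_PSC arrays lay above its PSC arrays, though all of these values are below the limit. The differences were 0.42 ± 0.15 (standard error of the fit, limma adjusted p 0.0336) for Scn7a and 0.39 ± 0.12 (limma adjusted p 0.0217) for Scn3b. Neither call held when all probe sets of the gene were averaged (limma adjusted p 0.0831 and 0.112). Scn7a also lost its call without PSC replicate 2, PSC replicate 3 or EB_PSC replicate 2 (0.24), and Scn3b without PSC replicate 1, PSC replicate 3 or either EB_PSC array.

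The pacemaker family was measured through 2 genes. Hcn3 had 7.22, 7.16 and 6.86 in PSC and 6.46 and 6.80 in EB_PSC, where every EB_PSC array lay below every PSC array. It fell by 0.45 ± 0.15 (limma adjusted p 0.0251), a 1.36-fold difference, and the call was lost without EB_PSC replicate 1 (-0.28), PSC replicate 1 or PSC replicate 2 and under cyclic loess. Hcn2, a fast pacemaker channel of heart and brain, had means of 5.98 ± 0.26 (SD, n = 3) in PSC and 5.61 ± 0.23 (n = 2) in EB_PSC. Its lowest PSC array (5.78) and its highest EB_PSC array (5.77) lay next to each other, and the difference of -0.38 did not pass the test (limma adjusted p 0.112).

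Among calcium channel genes the pores of the heart did not pass the test, while their auxiliary subunits moved in both directions. By limma 0 of the 4 L-type pores were called, and 0 had an unadjusted p below 0.05, with differences from -0.15 to 0.21. Cacna1c, the main L-type pore of heart muscle, had 4.60, 4.63 and 4.42 in PSC and 4.69 and 4.83 in EB_PSC, a difference of 0.21 (limma adjusted p 0.215). A second probe set of the gene gave 0.46 ± 0.14 in a fit of all probe sets (limma adjusted p 0.0212), and the average of both gave 0.33 (limma adjusted p 0.0139). Cacna1d, the other L-type pore known from the sinus node, had a difference of -0.15, and the T-type pores Cacna1g and Cacna1h had -0.23 and 0.33, none of them called. Cacna1a, the P/Q-type pore best known from nerve endings, was the 1 of 9 measured calcium pores that fell. Its values were 5.55, 5.88 and 5.85 in PSC and 5.06 and 5.13 in EB_PSC, a difference of -0.67 ± 0.17 (limma adjusted p 0.00657) that became -0.32 with its 4 probe sets averaged and was still called.

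The alpha2delta subunits, which carry calcium channels to the surface and bind gabapentin-type drugs, moved in opposite directions. Cacna2d1, the member of this family found in heart muscle, had 4.50, 4.55 and 4.82 in PSC and 5.90 and 5.45 in EB_PSC, so both EB_PSC arrays stood above the limit and all PSC arrays below it. Its difference was 1.05 ± 0.16 (limma adjusted p 0.000114), and another of its 5 probe sets gave 1.08. Cacna2d2 went the other way, with 6.63, 6.43 and 6.70 in PSC and 5.18 and 5.70 in EB_PSC. It fell 2.21-fold, a difference of -1.14 ± 0.17 (limma adjusted p 9.32e-05). Averaging all probe sets of a gene brought the 2 differences to 0.39 and -0.39, both still called. Cacnb2, the main beta subunit of the cardiac L-type channel, had a difference of 0.41 (limma adjusted p 0.0319) that was lost without EB_PSC replicate 1 (0.25), PSC replicate 1 or PSC replicate 3. Of 8 gamma subunits, Cacng6 alone was called, lower by 0.92 ± 0.15 (limma adjusted p 0.000216), and its other probe set fell by 1.11.

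In the Kv1 to Kv4 pores, the voltage-gated potassium channels of the transient outward and delayed rectifier currents, 2 of 13 rose and 2 fell. Kcnd2, a pore of the fast transient outward current, had 3.83, 3.81 and 3.77 in PSC and 4.72 and 4.30 in EB_PSC. Kcna5, a pore of the ultra-rapid delayed rectifier of the atrium, had 3.40, 3.41 and 3.43 in PSC and 4.16 and 3.97 in EB_PSC. Both genes stayed under the limit, with differences of 0.70 ± 0.14 (limma adjusted p 0.00118, and 0.26 with 4 probe sets averaged) and 0.65 ± 0.13 (limma adjusted p 0.000837). The related pore Kcnd1 fell, with 6.84, 6.99 and 7.04 in PSC and 6.02 and 6.26 in EB_PSC, a 1.76-fold difference (limma adjusted p 0.000243). Another of its probe sets was lower by 0.48, and the average of all 3 gave -0.48. Kcnd3, a further pore of the transient outward current, was lower by 0.46 (limma adjusted p 0.0316), and this was -0.04 with its 4 probe sets averaged. It was not called without EB_PSC replicate 1 (difference -0.24), PSC replicate 1 or PSC replicate 2.

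The accessory subunits of these pores were called in 3 of 11 cases. Kcnip2, a calcium-binding protein that brings Kcnd2 and Kcnd3 pores to the surface, had 7.67, 7.69 and 7.51 in PSC, 6.31 and 6.76 in EB_PSC and 7.46, 7.56 and 7.46 in ESC. It fell 2.12-fold from PSC to EB_PSC, by 1.09 ± 0.15 (limma adjusted p 3.72e-05), while another of its probe sets fell by 0.80, and the average of all 3 by 0.69. Kcne3, a small single-pass subunit, had 3.06, 3.35 and 2.99 in PSC and 4.63 and 3.52 in EB_PSC, and the 2 EB_PSC arrays lay further apart than the PSC arrays. Its difference of 0.94 ± 0.25 (limma adjusted p 0.00673) became 0.39 (limma adjusted p 0.142) without EB_PSC replicate 1 and 1.50 without EB_PSC replicate 2. Kcne4, of the same family, was lower by 0.42 (limma adjusted p 0.0357), a call lost under cyclic loess and when any of the 3 PSC arrays or EB_PSC replicate 1 (-0.27) was left out. Kcne1, the partner of the slow delayed rectifier, had a difference of 0.03 (limma adjusted p 0.9).

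Few of the other voltage-gated potassium channel genes were called, and an uncalled dim gene is not shown to be unchanged. Kcnq5, which carries a slow M-type current in nerve and smooth muscle, was 1 of 2 measured Kv7 pores and had 3.51, 3.23 and 3.42 in PSC, 4.70 and 4.54 in EB_PSC and 3.62, 3.68 and 3.58 in ESC. It rose by 1.24 ± 0.13 (limma adjusted p 4.07e-06) from a dim start, and averaging its 3 probe sets gave 0.38. No other probe set of Kcnq5 was called. The 6 ether-a-go-go pores and the 9 silent modifier subunits, which pair with other Kv pores, held 0 called genes, with 0 and 1 members at an unadjusted limma p below 0.05. Kcnh2 had 6.45, 6.62 and 6.32 in PSC and 6.27 and 6.66 in EB_PSC, a difference of 0.00 ± 0.19.

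Calcium- and sodium-activated potassium channels had 2 of 11 members higher and 2 lower. Kcnmb4 had 5.74, 5.92 and 5.69 in PSC, 7.13 and 7.11 in EB_PSC and 5.75, 5.38 and 5.43 in ESC. Both EB_PSC arrays lay more than 1 log2 unit above every stem cell array, and the difference from PSC was 1.33 ± 0.14 (limma adjusted p 4.31e-06). Kcnmb1, the beta1 subunit best known from smooth muscle, had a difference of 0.38 (limma adjusted p 0.0298) in its brightest probe set and 1.31 ± 0.15 (limma adjusted p 1.42e-05) in its other, and the average of both was 0.84. The call of the brightest was lost without PSC replicate 1, PSC replicate 3 or EB_PSC replicate 2. Kcnma1, the pore that both beta subunits bind, had 6.22, 5.99 and 6.07 in PSC and 6.12 and 6.29 in EB_PSC, with a difference of 0.11 that was not called. The small-conductance channels Kcnn2 and Kcnn1 were lower by 0.83 ± 0.19 (limma adjusted p 0.00229) and 0.44 ± 0.13 (limma adjusted p 0.0163). Kcnn2 had 5.52, 5.48 and 5.57 in PSC and 4.99 and 4.40 in EB_PSC, and without EB_PSC replicate 2 its difference was -0.53 (limma adjusted p 0.0513). Kcnn1 lost its call without either EB_PSC array, without PSC replicate 2, under cyclic loess, and with its probe sets averaged, where it was -0.17.

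Of 15 inward rectifiers 1 rose and 2 fell. Kcnj5, which forms the acetylcholine-gated channel of the atrium together with Kcnj3, had 4.09, 4.24 and 4.03 in PSC and 5.34 and 4.93 in EB_PSC, where each EB_PSC array exceeded each PSC array. The difference was 1.01 ± 0.15 (limma adjusted p 9.64e-05), and 0.43 with its 2 probe sets averaged. The other probe set of Kcnj5 was not called. Kcnj3 itself had 5.71, 5.50 and 5.51 in PSC and 5.58 and 5.86 in EB_PSC, a difference of 0.15 that was not called. Kcnj6, another acetylcholine-gated family member, fell by 0.53 (limma adjusted p 0.00261), which averaging its 5 probe sets brought to -0.22 and ended. Kcnj10, known for potassium buffering by glia, fell by 0.46 (limma adjusted p 0.0131), a call lost without PSC replicate 2 or EB_PSC replicate 1. The other inward rectifiers fixed as heart channels did not pass the test. Kcnj2, the main pore of the resting current in ventricular muscle, had values between 3.14 and 3.39 on the PSC and EB_PSC arrays and a difference of -0.09, Kcnj8 had -0.04 and Kcnj11 -0.25.

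Of 12 2-pore-domain channels, Kcnk5 was the 1 called. It had 8.03, 8.14 and 8.01 in PSC, 6.35 and 5.85 in EB_PSC and 8.69, 8.02 and 8.29 in ESC, so that both embryoid body arrays lay far below every stem cell array. The difference from PSC was -1.96 ± 0.19 (limma adjusted p 1.95e-06), and its other probe set fell by 1.16. Kcnk3, an acid-sensitive channel of the heart, had a difference of -0.12, and Kcnk1 and Kcnk6 had 0.08 and -0.12, none of them called.

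**Figure D3:**
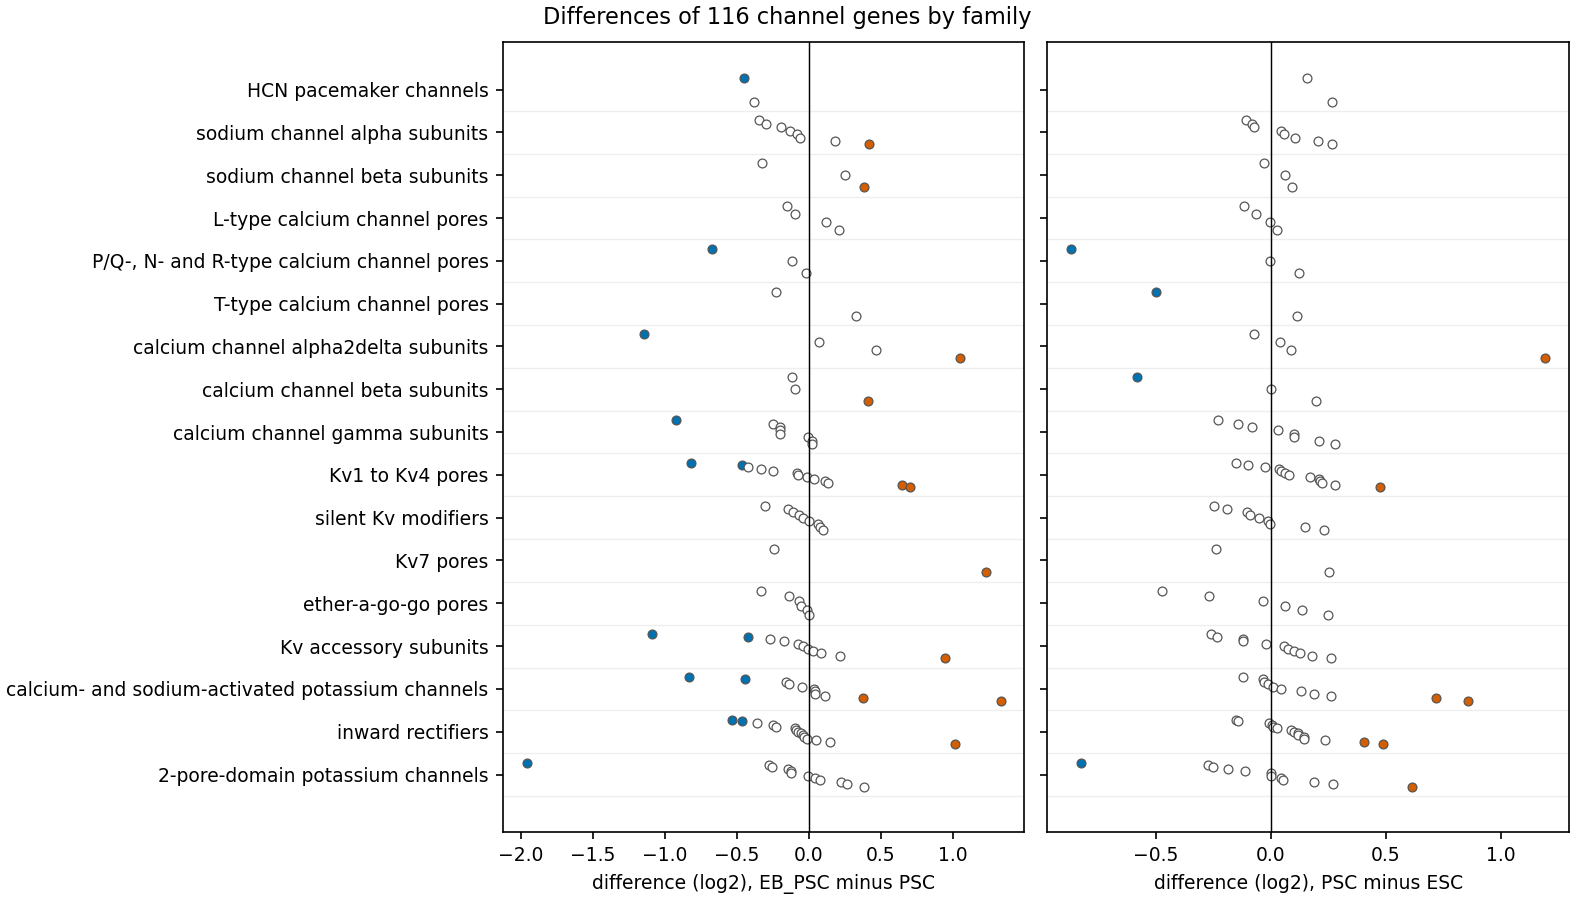
Each point is a channel gene, placed by its family (rows) and by its log2 difference (x axis), EB_PSC minus PSC on the left and PSC minus ESC on the right. Orange points were called higher, blue points lower and white points were not called, and most families hold a majority of white points around 0.

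Several probe sets report most of the called genes, and they were compared as a check of the measurement. Of the 24 genes called between EB_PSC and PSC, 17 had more than 1 probe set, 6 of these had another probe set called in the same direction and 0 had one called in the opposite direction. The 6 were Cacna2d1, Cacng6, Kcnd1, Kcnip2, Kcnk5 and Kcnmb1. Another 6 genes that were not called by their brightest probe set had a dimmer one called, among them Cacna1c and Cacnb4, a beta subunit whose second probe set rose by 0.63. Over all alternatives in which they were tested, 12 of the 24 genes kept their call. These were Kcnmb4, Kcnq5, Cacna2d1, Kcnj5, Kcnd2 and Kcna5 among the higher, and Kcnk5, Cacna2d2, Kcnip2, Cacng6, Kcnd1 and Cacna1a among the lower genes. Kcnmb4 and Kcna5 have 1 probe set each, so averaging could not change them. For Kcnq5, Kcnj5, Kcnd2, Cacna2d2 and Cacna1a no other probe set was called, and their averages contain the brightest one. Genes with an overall mean below the limit were not tested under the filter on dim probe sets.

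**Figure D4:**
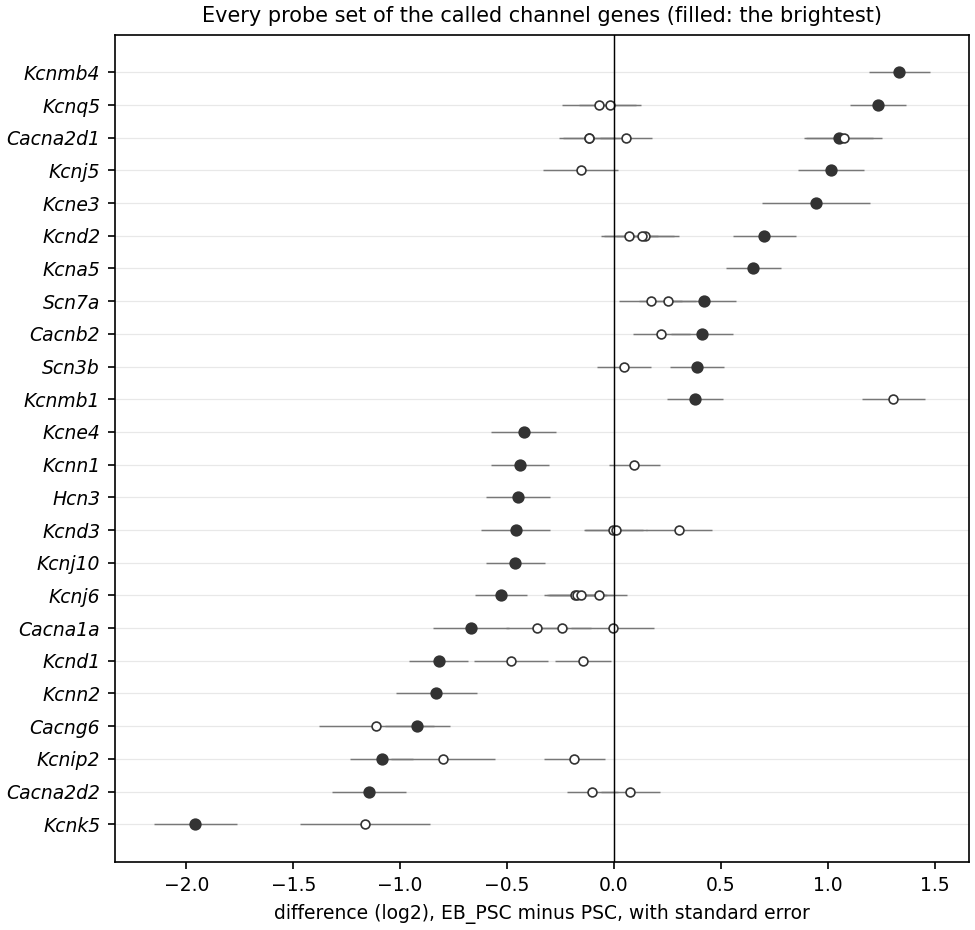
Points with standard error bars are the log2 differences, EB_PSC minus PSC (x axis), of every probe set of the 24 called genes, with the brightest one filled. For Kcnk5 and Kcnip2 the second probe sets lie on the same side of 0, while several genes have probe sets near 0.

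Genes that act with these channels were followed through a list of 28 partner and regulator genes, of which 26 were measured. In EB_PSC 12 were higher and 3 lower than in PSC, with a median difference of 0.25. Of all genes 18.8% were higher and 25.2% lower. Casq2, Cav3, Abcc9, Dpp6, Dpp10, Ank2, Gja5, Gjc1, Fgf11, Fgf12 and Fgf14 were not called. The genes named next were chosen after their values were seen. The sodium-calcium exchanger Slc8a1 rose by 2.14 ± 0.20 (limma adjusted p 1.39e-06) and the calcium release channel Ryr2 by 0.83 ± 0.20 (limma adjusted p 0.00389). The calcium channel inhibitors Gem and Rrad rose by 2.34 ± 0.26 and 1.43 ± 0.16, the kinase Camk2d by 1.51 ± 0.15, and Fgf13, a modulator of sodium channels, by 1.04 ± 0.16. Of the anchoring proteins, Ank3 rose by 1.27 and Akap9 by 1.05, and the ventricular gap junction protein Gja1 by 1.45. Falling genes were the ubiquitin ligase Nedd4l, by 1.46, Abcc8, the sulfonylurea receptor that pairs with Kcnj11, by 0.75, and the calcium pump Atp2a2, by 0.39.

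Of 14 transcription factors known to act on conduction system or channel genes, 13 were measured, 6 were higher and 2 lower, with a median difference of 0.36. Rest, which represses channel genes in non-neuronal cells, had means of 10.61 ± 0.13 (SD, n = 3) in PSC and 8.57 ± 0.10 (n = 2) in EB_PSC, a fall of 2.04 ± 0.24 (limma adjusted p 1.42e-05). Tbx3, a factor of the sinus node that stem cells also express, fell by 2.52. Gata6, Irx3, Isl1 and Hey2 rose by 2.55, 2.07, 1.64 and 1.58 log2 units.

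Embryoid bodies hold many cell types, and in bulk RNA fewer cells of a type and less RNA per cell cannot be told apart. Markers of other cell types moved in the same arrays as the channel genes. Endothelial markers were higher in 5 of 6 and lower in 1, with array means of 5.37 to 5.52 in PSC and 6.89 to 7.08 in EB_PSC. Smooth muscle markers rose in 4 of 6, with array means of 6.00 to 6.15 and 8.44 to 8.59. Fibroblast markers rose in 6 of 7 and fell in 1 (5.71 to 5.90 and 8.98 to 9.55), visceral endoderm markers rose in 4 of 7 and fell in 1 (5.39 to 5.45 and 6.91 to 7.11), and erythroid markers rose in 3 of 6 (4.76 to 4.89 and 7.10 to 7.36). Macrophage markers rose in 3 of 5 and fell in 1, skeletal muscle markers rose in 2 of 10 and fell in 2, and neuron markers rose in 2 of 12 and fell in 5. Cardiomyocyte markers had array means of 5.04 to 5.12 in PSC and 7.94 to 8.65 in EB_PSC, and pluripotency markers 11.54 to 11.73 and 9.49 to 9.58. The part of any of these cells in the channel results was not tested.

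PSC against ESC compares undifferentiated cells with maternal genomes alone and with genomes of both parents. The line differs together with genome origin here. Of these groups, the labels name a strain for PSC only and feeders with LIF for ESC only. Strain and culture may therefore differ as well, and none of these can be told apart from genome origin. Of the 116 channel genes 7 were higher in PSC (6.03%, where 9.07% of all genes were) and 4 were lower (3.45%, where 11.7% of all genes were). At or above the limit 6 of 36 were higher (16.7%, all such genes 12.4%) and 3 lower (8.33%, all such genes 17.1%), and below it 1 of 80 in each direction (1.25%, all such genes 3.09% higher and 2.02% lower). The median difference was 0.04, and over all genes 0.01. Among the called genes only Cacna2d2 differed by 1 log2 unit or more, which 3.02% of all genes did. The arrays of PSC and ESC did not overlap for 22 channel genes (19%), against 36.5% of all genes. Fibroblast and feeder markers were lower in PSC in 5 of 7 and higher in 0, with array means of 5.71 to 5.90 in PSC and 6.68 to 7.01 in ESC. Of 12 neuron markers, Ina, Tubb3 and Nefl were lower in PSC (differences of -1.60, -0.88 and -0.58) and Stmn2 was higher by 0.56, with array means of 6.12 to 6.24 in PSC and 6.32 to 6.38 in ESC. Lower too were the smooth muscle markers Acta2 and Tagln (-0.85 and -0.51) and the pluripotency markers Zfp42 and Pou5f1 (-2.73 and -0.61). Single markers of skeletal muscle (Mylpf), visceral endoderm (Amn) and macrophages (Cd68) were higher, by 0.59, 1.72 and 1.46. The part of any of these in the channel results was not tested.

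Cacna2d2 was the gene with the widest gap among the channel genes between PSC and ESC. Its ESC values of 5.47, 5.16 and 5.54 lay below all PSC values given above, and the difference was 1.19 ± 0.15 (limma adjusted p 0.000128), 0.34 with its 3 probe sets averaged. Kcnu1, a potassium pore known from sperm, had 5.05, 5.09 and 5.25 in PSC and 4.37, 4.35 and 4.10 in ESC. Its difference of 0.86 ± 0.12 (limma adjusted p 0.000204) held in every alternative in which it was tested, although all of these values are dim.

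Kcnn4, the intermediate-conductance calcium-activated channel, had 7.08, 7.08 and 6.87 in PSC and 5.97, 6.64 and 6.27 in ESC. It was 1.64-fold higher in PSC (limma adjusted p 0.00473), and with its probe sets averaged the difference of 0.72 became 0.35. Kcnk6, a 2-pore-domain channel, had 7.78, 7.80 and 7.63 in PSC and 7.04, 7.26 and 7.07 in ESC, a 1.53-fold difference (limma adjusted p 0.0018). Kcnj11 had 9.68, 9.51 and 9.79 in PSC and 9.21, 9.10 and 9.21 in ESC. It was 1.40-fold higher (limma adjusted p 0.00853), and averaging its 2 probe sets ended the call, with 0.22. Its partner Abcc8 was higher in PSC by 0.57 (limma adjusted p 0.0126). Kcnd1 and Kcnj6 were higher by 0.48 and 0.40 (limma adjusted p 0.014 and 0.017). The Kcnd1 difference was 0.32 with its probe sets averaged, and its call was lost without PSC replicate 2 or 3, and the Kcnj6 call without PSC replicate 1, PSC replicate 2 or ESC replicate 3 and with its probe sets averaged, where it was 0.17.

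Cacna1a and Kcnk1 were the lower genes with the largest differences. Cacna1a had ESC values of 6.92, 6.29 and 6.68, above all of its PSC values, a difference of -0.87 ± 0.16 (limma adjusted p 0.00157) and -0.35 with its 4 probe sets averaged. Kcnk1 had 8.25, 8.24 and 7.92 in PSC and 9.22, 8.47 and 9.19 in ESC, lower in PSC by 0.82 ± 0.18 (limma adjusted p 0.00565), and its other probe set gave -1.06. Cacnb1, a calcium channel beta subunit, had 5.59, 5.54 and 5.62 in PSC and 6.25, 6.15 and 6.09 in ESC, with a difference of -0.58 ± 0.14 (limma adjusted p 0.00951) and of -0.29 with its probe sets averaged. Cacna1h was lower by 0.50 (limma adjusted p 0.04), a call lost when any of the 3 PSC arrays or ESC replicate 1 or 2 was left out, and with probe sets averaged or arrays weighted (-0.26 in both). Kcnh2 had 6.45, 6.62 and 6.32 in PSC and 7.08, 6.53 and 7.21 in ESC, where ESC replicate 2 overlapped the PSC arrays. It was lower in PSC by 0.47 and was not called (limma adjusted p 0.071), but it was without ESC replicate 2 (-0.68, limma adjusted p 0.00574) and with arrays weighted (-0.67, limma adjusted p 0.00161). By limma 0 of the 11 sodium channel genes and 0 of the 2 pacemaker genes were called between PSC and ESC, and 0 of them had an unadjusted p below 0.05. Of the 11 channel genes called between PSC and ESC, 9 had more than 1 probe set. Another probe set was called in the same direction for 1 of these 9, Kcnk1, and in the opposite direction for 0.

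**Figure D5:**
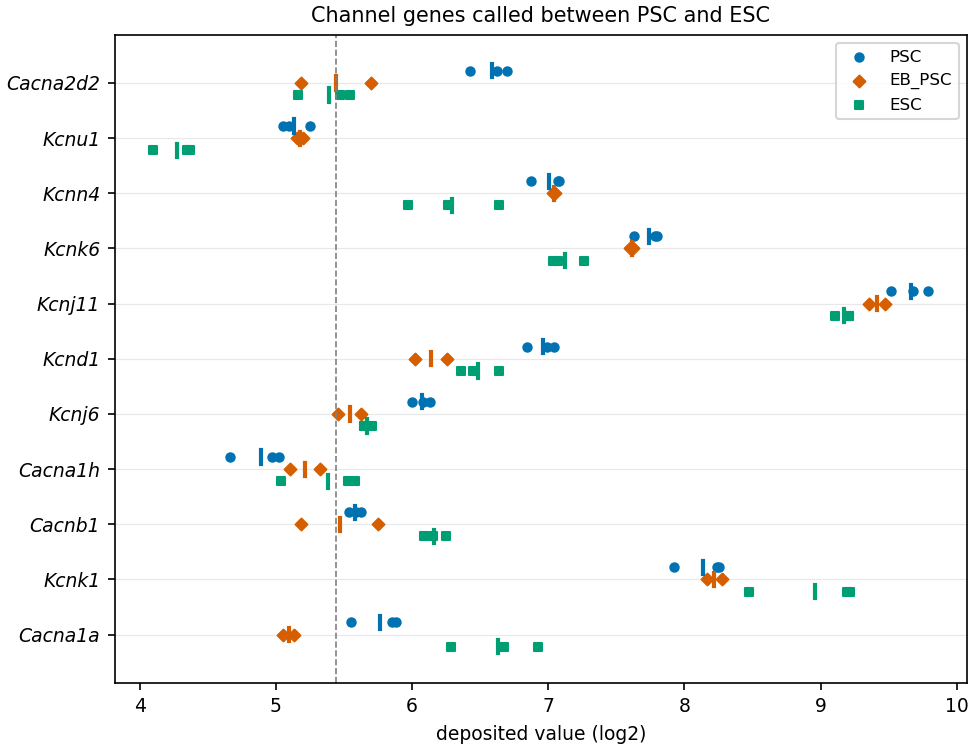
Points are the log2 values (x axis) of each array for the 11 channel genes called between PSC and ESC, 1 row per gene, coloured by group, with EB_PSC shown beside them. PSC and ESC points do not overlap in any row, and for Kcnu1 and Kcnn4 the EB_PSC points lie near those of PSC.

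EB_PSC against ESC shares its arrays with both comparisons above, so its values are given beside theirs and are not a separate line of evidence. There were 17 channel genes higher in EB_PSC (14.7%, where 19.3% of all genes were) and 10 lower (8.62%, where 25.6% of all genes were). By level, 14 of 80 channel genes below the limit were higher (17.5%, all such genes 11.9%) and 5 lower (6.25%, all such genes 6.01%), and at or above it 3 of 36 were higher (8.33%, all such genes 23.4%) and 5 lower (13.9%, all such genes 36.4%). Without EB_PSC replicate 1 the median difference was -0.02 over the channel genes and -0.05 over all genes. Kcnmb4 was 3.03-fold higher and Kcnk5 4.70-fold lower than in ESC, beside 2.52-fold and 3.89-fold against PSC. Kcnip2 was 1.94-fold lower than in ESC. Cacna2d2 had a difference of 0.05 from ESC, beside -1.14 from PSC. Kcnu1, Kcnn4 and Kcnk6 were higher than in ESC by 0.91, 0.75 and 0.49, beside differences of 0.05, 0.03 and -0.12 from PSC. The Kcnn4 result rests on its brightest probe set, since the other gave -0.35 and was called in the opposite direction. That other probe set was also called between EB_PSC and PSC, where the brightest was not. Of the 27 genes called between EB_PSC and ESC, 19 had more than 1 probe set. Another was called in the same direction for 7 of these. Cacna1a was lower by 1.54 ± 0.17 (limma adjusted p 7.28e-06), which became -0.67 with its probe sets averaged, and it was also lower in EB_PSC than in PSC and in PSC than in ESC.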

How the data were processed

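Total RNA was hybridised to 8 mouse Affymetrix arrays, 1 colour each. The authors deposited log2 values made with RMA, per the labels and the submitters' processing notes. The version of RMA, and whether it ran on the whole set of arrays at once, are not given in the sources used. RMA gives arrays nearly equal distributions (medians 5.39 to 5.47), so a shift of most genes would not show, and low signals shrink differences. Of 45101 probe sets, 34958 had 1 gene symbol in the platform annotation, 932 several and 9211 none. The single-symbol ones were used, and Entrez identifiers matched 34754 of them to RefSeq (GRCm38.p6), which updated 0 symbols. Each of 18194 genes was read through its brightest probe set.

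Differences were fitted by limma (version 3.58.1, R 4.3.3) over the 8 arrays, with group as sole covariate, two-sided, with Benjamini-Hochberg adjustment over 18194 genes and calls at an adjusted p below 0.05. Errors are standard errors of that fit. The few arrays limit the precision, most of all for EB_PSC. The script was tested on simulated data. Promoter motifs were counted with Python 3.11.15. Named genes were the 8 largest called rises and falls with arrays that do not overlap, 26 fixed channel genes (4 not analysed here), up to 3 called members per family and every called member where a family's count in a direction was 5 or fewer. Marker lists of 10 cell types and 2 lists of partner genes and transcription factors were described by counts. The members, the lists and the rule were chosen with earlier results of these data known. Alternatives were 2 other normalizations, a filter on dim probe sets, other choices of probe set, the compared groups alone, another variance prior, weights per array, a block on replicate number and each array left out. Testing every probe set was added after seeing the data. Same-numbered arrays of different groups had correlations of their deviations from the group means between -0.25 and 0.22, so the numbers were not taken to pair the arrays.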

Additional observations from a re-analysis of the deposited data

How the results depend on the processing

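For the 62 differences called, 1018 values were computed under the other gene-level settings. In 109 of them the call was lost, and 0 changed sign. For the 48 named differences that were not called, 13 of 794 values were called, and 35 changed sign. Of the probe sets tested singly, the dimmer one of Kcnn4 was called opposite to the brightest, lower in EB_PSC than ESC (-0.35). The filter on dim probe sets, which tests fewer genes, left 1 higher and 8 lower channel genes in EB_PSC against PSC. Of all genes kept by the filter, 23.7% were higher and 35.6% lower. Against ESC it left 3 higher and 6 lower channel genes (all genes kept 24.1% and 37.3%). Array weights gave 16 lower channel genes in EB_PSC against ESC, where 27.6% of all genes were lower. Counting a gene if any of its probe sets was called gave 12 higher in PSC against ESC. The share of all genes was not counted that way, and the cause of these counts was not tested. Leaving out each array in turn gave 7 to 12 higher and 8 to 14 lower in EB_PSC against PSC, 5 to 7 higher and 3 to 4 lower in PSC against ESC, and 11 to 17 higher and 6 to 13 lower in EB_PSC against ESC. The share of all genes called moved too, given here for the fits that left 2 or more arrays in each group. It was 16.9% to 19.5% higher and 21.5% to 26.5% lower in EB_PSC against PSC. In PSC against ESC it was 6.15% to 9.43% and 7.31% to 13.3%, and in EB_PSC against ESC 17.7% to 19.6% and 22.8% to 26.1%. With the replicate number as a block, there were 8 higher and 14 lower channel genes in EB_PSC against PSC (all genes 17.9% and 23.4%). There were 7 and 4 in PSC against ESC (all genes 8.5% and 11.1%), and 12 and 10 in EB_PSC against ESC (all genes 18.4% and 23.9%). The block ended the calls of Cacnb2, Kcne4, Kcnmb1 and Scn7a in EB_PSC against PSC. Against ESC it ended those of Cacna2d3, Cacnb2, Kcnab1, Kcnk7 and Kcnmb1. The replicate numbers were not shown to pair the arrays. Dim signal is 1 limit, since 74 of the 116 channel genes lay below 5.44 in every group, and EB_PSC has 2 arrays.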
